A study of Mus musculus with 6 samples.

Results

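Open chromatin was examined at 10 genes of the p53 pathway, the Ink4a locus and growth arrest in immortalised mesenchymal cells from the atrioventricular cushions of mouse embryos, the tissue that forms the heart valves. The genes were Trp53, Mdm2, Cdkn1a, Cdkn1b, Cdkn1c, Cdkn2a, Cdkn2b, Rb1, Gadd45a and Ccng1, chosen by function with earlier results of these data known. Every peak that overlapped the gene body, or 10 kb either side of it, was counted to the gene. Peaks of different libraries that overlapped by at least 1 bp were merged into a region. The 10 windows held 25 of the 49048 regions in the series.

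The assay was ATAC-seq, in which a transposase cuts accessible DNA and tags it for sequencing. A library took 54000 cells of passage 6, and reads were paired and 50 bp long. The high-glucose replicates (HG1, HG2 and HG3) spent 48 h in 25 mM glucose, and the normal-glucose replicates (NG1, NG2 and NG3) spent the same time in 5.5 mM, the level in which the line is kept. By its title, the series addresses the risk of congenital heart disease that comes with maternal diabetes. Cells of both conditions were one line, from mice labelled H- 2Kb-tsA58 transgenic. That transgene encodes a temperature-sensitive SV40 large T antigen under an H-2Kb promoter, and large T binds the p53 and Rb proteins, so both conditions share a background in which these pathways may be altered. The labels do not say whether replicates were separate cultures, so differences between libraries may be technical.

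The 5 lists used held 22156, 25020 and 22598 peaks in HG1, HG2 and HG3, and 24263 and 40350 peaks in NG1 and NG3. NG2 held 66 peaks, fell under the minimum of 1000 and entered no comparison. Read counts are not part of these lists, and depth is therefore unknown. The longest list was NG3. Of 20 cushion mesenchyme markers, 17 had a region in all 5 lists within 10 kb, among them Sox9, Snai2, Tbx20 and Vim, while Twist1, Postn and Pdgfra did not. Over all protein-coding genes this held for 50%. It held for 1 of 10 endothelial markers (Vwf), 2 of 10 blood markers (Spi1 and Cd68), 3 of 10 cardiomyocyte markers (Tnnt2, Tnni3 and Nppb) and 5 of 10 mesothelial and epithelial markers (Upk3b, Wt1, Msln, Lrrn4 and Cdh1). Median windows were 50.3 kb for the cushion markers and 37.2 kb over all genes, and a longer window has more room for a region. They were 73.7 kb for the endothelial and 30.7 kb for the blood markers. For the cardiomyocyte markers they were 26.0 kb, and for the mesothelial and epithelial ones 27.1 kb. The part of other cell types in the values given here was not tested.

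p53, encoded by Trp53, is a transcription factor that DNA damage and other stresses stabilise. It induces Cdkn1a, Gadd45a and Ccng1, which act in growth arrest and DNA damage responses, and Mdm2, the ubiquitin ligase that returns p53 to low levels. The Cip/Kip proteins p21 (Cdkn1a), p27 (Cdkn1b) and p57 (Cdkn1c) bind cyclin-dependent kinases, and the Ink4 proteins p16 (from Cdkn2a) and p15 (Cdkn2b) block the kinases of G1 phase. Both routes keep the retinoblastoma protein Rb in its growth-suppressing form. The alternative product of Cdkn2a, Arf, inhibits Mdm2. Polycomb complexes keep the Cdkn2a and Cdkn2b locus silent in many dividing embryonic cells.

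Of the 10 genes, 7 had a region present in all 5 lists within their window: Trp53, Mdm2, Cdkn1a, Cdkn1b, Rb1, Gadd45a and Ccng1. Among all 21883 protein-coding genes the share was 50%. Cdkn2a and Cdkn2b had no region in any list, which held for 27.6% of all genes. Cdkn1c had only regions seen in 1 list, which held for 6.54%. The 10 genes were chosen by function with earlier results of these data known. These shares are thus a description, and they are not set against chance. The median gene of the group had 0.888 regions per 10 kb of window, against 0.338 over all genes, with a median window of 28.3 kb against 37.2 kb.

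Of the 25 regions, 11 (44.0%) were in all 5 lists, 7 in 2 or 3 lists and 7 (28.0%) in 1 list. Over the whole series 25.1% of regions were in all 5 lists and 39.7% in 1. Of the 7 regions seen in 1 list, 4 were in NG3, and HG1, HG2 and NG1 held 1 each. The strength of a peak is given as its percentile within its own list by the authors' −log10 p, where 100 is the strongest. The median over the 11 regions in all 5 lists was 64.3, 86.0 and 81.2 in HG1, HG2 and HG3, and 79.8 and 85.1 in NG1 and NG3. Over all regions in all 5 lists it was 70.9, 74.2 and 71.0 in HG1, HG2 and HG3, and 72.4 and 83.8 in NG1 and NG3. Percentiles of lists of different length rank peaks within a library and show no change between libraries.

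**Figure D1:**
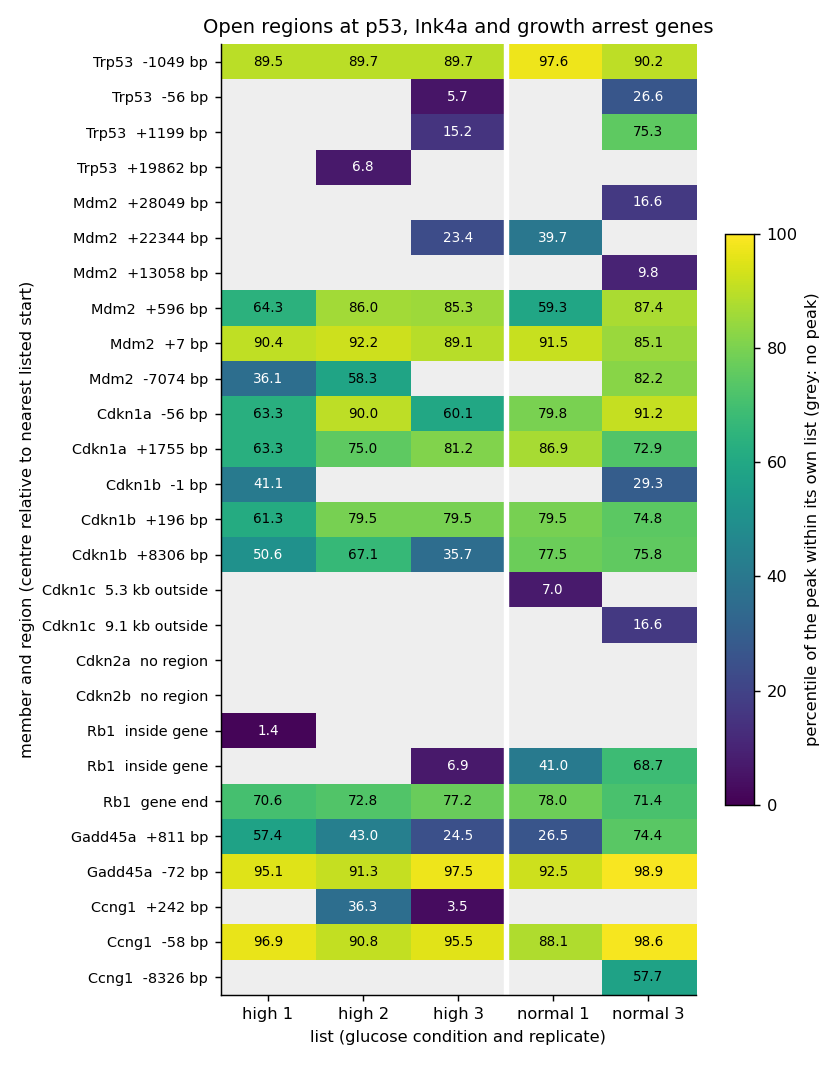
Percentile of the peak within its own list (colour and number) for each of the 25 regions, in rows by gene, and the 5 lists, in columns with high glucose on the left. Grey cells have no peak, and rows give the distance of the region's centre from the nearest listed start, positive into the gene, or the place of the region for Cdkn1c and Rb1. Filled rows such as those at the starts of Mdm2, Gadd45a and Ccng1 have a peak in all 5 lists, and the rows of Cdkn2a and Cdkn2b are empty. Columns named high and normal are the HG and NG lists of that number.

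At Trp53, the shared open region lay upstream of the gene and at a start of its neighbour. The region chr11:69579132-69579488 (mm10) was centred at -1049 bp from the listed Trp53 start, which is upstream of it, and lay 61 bp from a listed start of Wrap53, a gene read in the opposite direction whose body reaches across the Trp53 start. It reached the 89.5, 89.7 and 89.7 percentile in HG1, HG2 and HG3, and the 97.6 and 90.2 percentile in NG1 and NG3. Every list held it in its upper part, and its summits lay within 25 bp of each other. Close to the Trp53 start, only HG3 and NG3 had a peak, at the 5.75 and 26.6 percentile. The region of these peaks was also centred 53 bp from a listed start of Wrap53, so it cannot be assigned to either gene. The same 2 lists held a peak 1199 bp inside the gene, at the 15.2 percentile in HG3 and at the 75.3 percentile in NG3. A last region, seen in HG2 alone at the 6.85 percentile, lay inside Atp1b2, 8280 bp beyond Trp53.

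Mdm2 carried a pair of shared regions, one across its start and one inside the gene. The region chr10:117710610-117710892 covered the listed start and stood at the 90.4, 92.2 and 89.1 percentile in HG1, HG2 and HG3, and at the 91.5 and 85.1 percentile in NG1 and NG3. The region chr10:117710000-117710323 was centred 596 bp inside the gene. It stood at the 64.3, 86.0 and 85.3 percentile in HG1, HG2 and HG3, and at the 59.3 and 87.4 percentile in NG1 and NG3. The inner peak ranked lowest in HG1 and NG1, a list of each condition. Mdm2 is known to have a p53-responsive promoter in its first intron in addition to the one at its start. The table of starts used here lists only the one at the start. Whether the inner region is the intronic promoter was not tested. The summits of the inner region fell between 590 and 602 bp into the gene in all 5 lists.

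Farther from Mdm2, a region centred at -7074 bp from the start, upstream of it, was present in HG1, HG2 and NG3, at the 36.1, 58.3 and 82.2 percentile. The remaining 3 regions of the Mdm2 window were in 1 or 2 lists, with no percentile above 39.7. One of these lay inside Cpm, the neighbouring carboxypeptidase gene.

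The 3 p53-induced growth arrest genes each had a merged region across a listed start, with a peak in all 5 lists. Cdkn1a has 2 listed starts. Its upstream start had no peak within the 300-base promoter (250 bases before to 50 after the start) in any list, whereas the downstream start had a peak in all 5. The downstream region, chr17:29093624-29093801, stood at the 63.3, 90.0 and 60.1 percentile in HG1, HG2 and HG3, and at the 79.8 and 91.2 percentile in NG1 and NG3. The HG1 peak in it ended at 29093766, just short of the downstream start at 29093769. A further region, chr17:29095411-29095637, was centred 1755 bp inside the gene from that start. It stood at the 63.3, 75.0 and 81.2 percentile in HG1, HG2 and HG3, and at the 86.9 and 72.9 percentile in NG1 and NG3. For both regions the percentiles of the conditions overlapped. These were the only regions within 10 kb of Cdkn1a, and no list added another.

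The 250 bases before each Cdkn1a start, from RefSeq on GRCm38.p6, are shown because a peak was called over one of them in all 5 lists and over the other in none. In the upstream one, chr17:29090729-29090978, capitals mark matches to the p53 half-site consensus. In the downstream one, chr17:29093519-29093768, capitals mark bases inside a peak in all 5 lists. Both are on the plus strand, written 5′ to 3′.
Cdkn1a upstream start: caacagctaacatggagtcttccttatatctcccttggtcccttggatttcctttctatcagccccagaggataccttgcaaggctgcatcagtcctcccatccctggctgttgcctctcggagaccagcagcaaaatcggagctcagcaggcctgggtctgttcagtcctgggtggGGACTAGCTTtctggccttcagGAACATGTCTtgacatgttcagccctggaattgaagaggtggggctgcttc
Cdkn1a downstream start: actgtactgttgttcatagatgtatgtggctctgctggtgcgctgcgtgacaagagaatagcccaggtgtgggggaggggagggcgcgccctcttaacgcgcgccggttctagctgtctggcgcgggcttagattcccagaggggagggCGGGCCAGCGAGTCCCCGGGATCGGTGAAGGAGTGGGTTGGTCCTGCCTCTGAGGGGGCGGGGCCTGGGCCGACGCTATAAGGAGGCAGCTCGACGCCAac
The half-sites of the upstream sequence began 73 and 51 bases before the start, and neither lay in a peak of any list. The downstream promoter had no half-site match. Across all 21262 promoters of protein-coding genes, 7.37% held at least 1 match on either strand. A match is a string of letters and not a bound site.

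Gadd45a, a growth arrest and DNA damage gene, was strongly open at its start. The region chr6:67037291-67037667 covered the start and stood at the 95.1, 91.3 and 97.5 percentile in HG1, HG2 and HG3, and at the 92.5 and 98.9 percentile in NG1 and NG3. Its lowest percentile, 91.3, was the highest minimum of the 11 regions in all 5 lists. The authors' fold enrichment at these peaks ran between 12.3 and 17.1. A weaker region, chr6:67036509-67036683, lay 811 bp inside the gene, centred 3 bp from the start of the antisense long noncoding RNA E230016M11Rik. Its percentiles were 57.4, 43.0 and 24.5 in HG1, HG2 and HG3, and 26.5 and 74.4 in NG1 and NG3.

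Ccng1, which encodes cyclin G1, was open at its start in the same way. The region chr11:40755173-40755516 stood at the 96.9, 90.8 and 95.5 percentile in HG1, HG2 and HG3, and at the 88.1 and 98.6 percentile in NG1 and NG3. Its fold enrichment ran between 11.6 and 19.7. A small region 242 bp inside the gene was in HG2 and HG3 alone, at the 36.3 and 3.48 percentile, and a region 8251 bp outside the gene was in NG3 alone, at the 57.7 percentile. The first of these came closest to a high-glucose pattern, but it was absent from HG1.

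The promoters of Mdm2, Gadd45a and Ccng1 are shown as the members whose listed start was open in all 5 lists and whose promoter held a p53 half-site match. Each is 250 bases on the minus strand, written 5′ to 3′ and ending at the base before the start. They are chr10:117710759-117711008, chr6:67037408-67037657 and chr11:40755287-40755536, and capitals mark bases inside a peak in all 5 lists.
Mdm2: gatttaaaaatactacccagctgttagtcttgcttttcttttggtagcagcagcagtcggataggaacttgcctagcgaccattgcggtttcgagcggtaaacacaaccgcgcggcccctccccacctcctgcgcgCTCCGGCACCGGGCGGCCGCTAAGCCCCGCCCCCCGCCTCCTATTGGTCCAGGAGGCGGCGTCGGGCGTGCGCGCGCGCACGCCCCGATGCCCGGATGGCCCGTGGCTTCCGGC
Gadd45a: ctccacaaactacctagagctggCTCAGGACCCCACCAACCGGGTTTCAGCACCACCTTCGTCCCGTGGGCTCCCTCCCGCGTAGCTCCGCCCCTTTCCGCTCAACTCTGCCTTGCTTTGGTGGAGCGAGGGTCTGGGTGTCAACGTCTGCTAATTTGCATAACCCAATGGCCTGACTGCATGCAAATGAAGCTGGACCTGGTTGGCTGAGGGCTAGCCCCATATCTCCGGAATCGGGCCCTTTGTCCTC
Ccng1: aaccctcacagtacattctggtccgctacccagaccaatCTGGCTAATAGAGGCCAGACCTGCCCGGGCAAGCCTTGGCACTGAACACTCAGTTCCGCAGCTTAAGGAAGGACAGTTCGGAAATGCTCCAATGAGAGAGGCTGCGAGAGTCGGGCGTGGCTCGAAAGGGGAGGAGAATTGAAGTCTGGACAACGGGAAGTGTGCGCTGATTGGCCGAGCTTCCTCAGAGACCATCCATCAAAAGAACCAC
Capitals cover 227 of the 250 bases at Gadd45a, 211 at Ccng1 and 114 at Mdm2. The half-site match of Gadd45a, 40 bases before the start, lay inside a peak in all 5 lists, as did that of Ccng1, 185 bases before the start. The match of Mdm2, 186 bases before the start, lay in the lower-case part and in a peak of none of them. Trp53 held a match 75 bases before its start, inside the small peaks of HG3 and NG3.

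**Figure D2:**
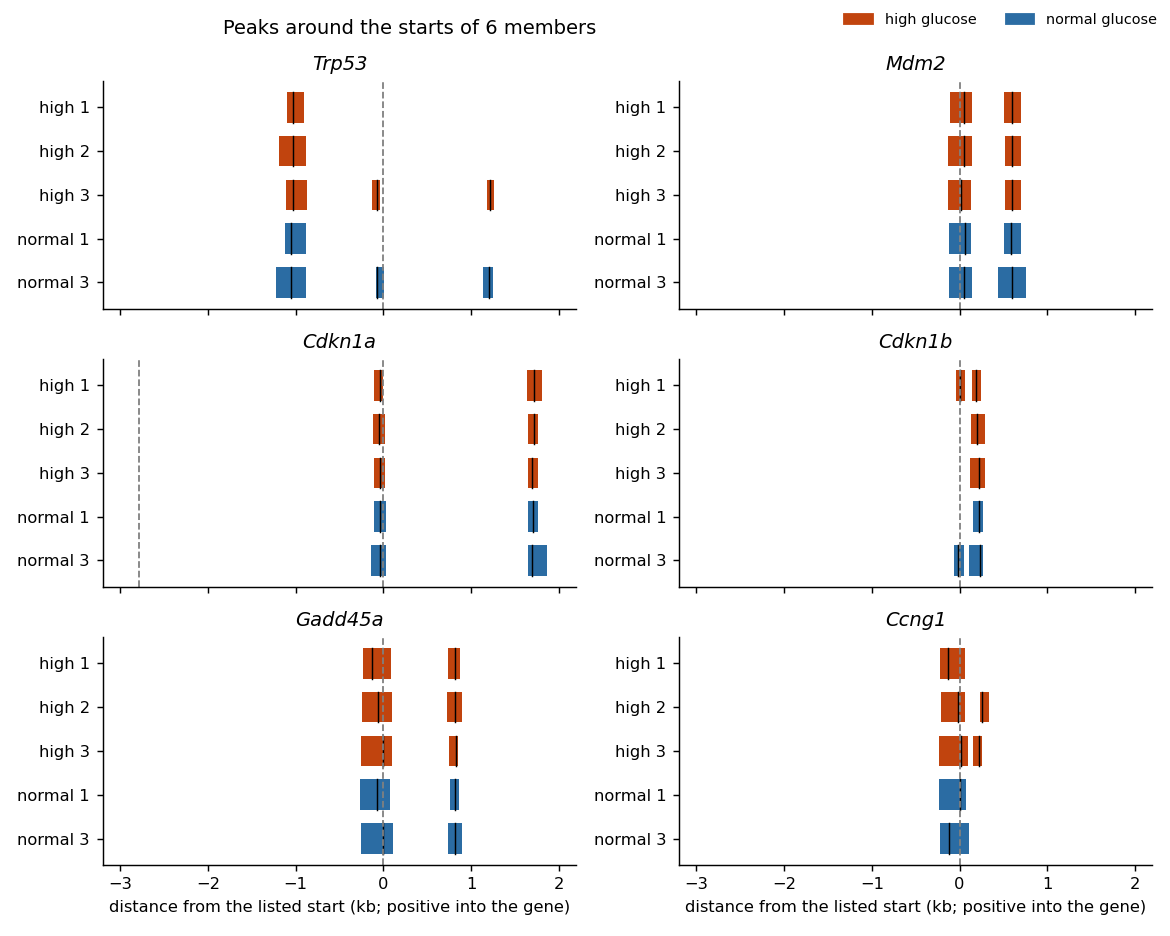
Peaks of the 5 lists (bars, with the summit as a black line) by distance in kb from the listed start of 6 genes, with high glucose in orange above normal glucose in blue and dashed lines at listed starts. At Cdkn1a zero is the downstream start, and the dashed line on the left is the upstream start, with no bar near it. At Trp53 the bars shared by all 5 lists lie left of the start.

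Among the other Cip/Kip genes, Cdkn1b had regions in all 5 lists and Cdkn1c had none. At Cdkn1b, which encodes p27, the region chr6:134920505-134920690 was centred 196 bp inside the gene. It stood at the 61.3, 79.5 and 79.5 percentile in HG1, HG2 and HG3, and at the 79.5 and 74.8 percentile in NG1 and NG3. Across the start itself, only HG1 and NG3 had a peak, at the 41.1 and 29.3 percentile. A further region, chr6:134928519-134928896, lay 2994 bp beyond the gene and 384 bp from the start of Lockd, a long noncoding RNA gene. It was in all 5 lists, at the 50.6, 67.1 and 35.7 percentile in HG1, HG2 and HG3, and at the 77.5 and 75.8 percentile in NG1 and NG3. Its percentiles were lower in every HG list than in NG1 and NG3, as were those of the Trp53 region shared by all lists. That makes 2 of the 11 regions in all 5 lists, near the share of 21.8% over all regions in all 5 lists. None of the 11 had the opposite order, which 3.88% had.

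Cdkn1c, the imprinted gene of p57, had no peak inside it in any list. NG1 held a peak 5346 bp outside the gene at the 7.04 percentile, 49 bp from a start of the long noncoding RNA gene Gm33663. NG3 held another, 9073 bp outside, at the 16.6 percentile. These are different places, so no position was shared. The nearest region in all 5 lists was 87.8 kb away, inside Nap1l4, a nucleosome assembly gene. It stood at the 96.8, 97.7 and 96.3 percentile in HG1, HG2 and HG3, and at the 97.3 and 95.3 percentile in NG1 and NG3.

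The Ink4 locus on chromosome 4 was the one place in the group without a peak in any of the 5 lists. The windows of Cdkn2a and Cdkn2b overlap and together run from 89264473 to 89321032. Around them, a stretch of 250 kb held no region in any list. Of all protein-coding genes, 16.5% lay wholly within a stretch that long or longer. Of the 9999 genes with a window at least as long as that of Cdkn2a, 14.7% had no region in any list. Stretches of this kind are thus common in these lists.

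The nearest region, chr4:89257813-89258058, lay 16.4 kb from the Cdkn2a end of the locus and in no protein-coding gene. It was in all 5 lists, at the 68.6, 60.0 and 31.6 percentile in HG1, HG2 and HG3, and at the 67.8 and 85.8 percentile in NG1 and NG3. On the other side the next region was 197 kb from Cdkn2b. The neighbouring Mtap, a methionine salvage gene, held regions in 2 to 4 lists. The windows of the related Ink4 genes elsewhere in the genome held regions in all 5 lists. Whether these belong to the Ink4 genes or to neighbours was not tested. The strongest peak in the window of Cdkn2c (p18) stood at the 93.4, 96.1 and 93.1 percentile in HG1, HG2 and HG3, and at the 96.4 and 96.0 percentile in NG1 and NG3. For Cdkn2d (p19Ink4d) these values were 96.7, 94.7 and 95.0 in high glucose, and 95.2 and 95.4 in normal glucose.

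**Figure D3:**
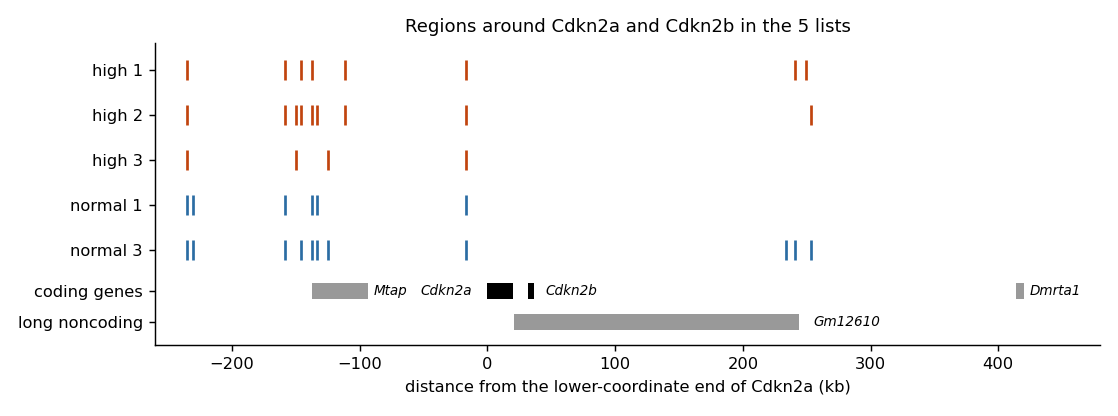
Regions present in each of the 5 lists (ticks, high glucose in orange above normal glucose in blue) by distance in kb from the lower-coordinate end of Cdkn2a, with genes as bars below. No tick falls on Cdkn2a or Cdkn2b, and the nearest one, 16.4 kb to the left, is in all 5 lists.

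The sequences before the 3 listed starts of the locus are shown because they differ in base composition although none lay in a peak. The upstream start of Cdkn2a belongs to the first exon of Arf and the downstream start to that of p16. They are chr4:89294620-89294869, chr4:89282193-89282442 and, for Cdkn2b, chr4:89311033-89311282, all on the minus strand and written 5′ to 3′. There are no capitals because no base lay in a peak of all 5 lists.
Cdkn2a upstream start: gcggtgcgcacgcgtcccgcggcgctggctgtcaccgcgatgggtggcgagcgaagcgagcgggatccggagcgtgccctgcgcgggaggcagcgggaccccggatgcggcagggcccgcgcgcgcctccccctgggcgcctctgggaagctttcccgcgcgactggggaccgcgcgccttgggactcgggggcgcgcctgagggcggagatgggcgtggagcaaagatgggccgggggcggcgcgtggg
Cdkn2a downstream start: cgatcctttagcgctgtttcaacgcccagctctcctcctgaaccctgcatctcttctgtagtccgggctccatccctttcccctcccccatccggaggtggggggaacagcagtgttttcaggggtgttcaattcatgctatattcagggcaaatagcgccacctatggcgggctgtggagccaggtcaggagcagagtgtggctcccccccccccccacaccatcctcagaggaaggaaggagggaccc
Cdkn2b: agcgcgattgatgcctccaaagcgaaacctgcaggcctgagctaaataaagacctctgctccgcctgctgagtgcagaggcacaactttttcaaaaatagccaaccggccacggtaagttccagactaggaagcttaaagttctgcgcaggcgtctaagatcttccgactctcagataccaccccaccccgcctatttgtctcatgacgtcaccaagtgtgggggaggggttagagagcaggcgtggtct
Over the 300-base promoter, GC made up 77.0% at the upstream Cdkn2a start, 60.3% at the downstream one and 57.7% at Cdkn2b. The ratio of observed to expected CpG was 1.04, 0.442 and 0.722 for these 3 starts, against a median of 0.567 over all promoters. The upstream Cdkn2a start thus ranked at the 94.5 percentile of all promoters by that ratio.

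Rb1, the gene of the retinoblastoma protein, was open at the higher-coordinate end of the gene. The region chr14:73325799-73326216 crossed that end and stood at the 70.6, 72.8 and 77.2 percentile in HG1, HG2 and HG3, and at the 78.0 and 71.4 percentile in NG1 and NG3. Its fold enrichment of 8.31 to 9.67 was lower than at the starts of Gadd45a and Ccng1, and it varied little over the lists. A region inside the gene overlapped Lpar6, a lysophosphatidic acid receptor gene nested in Rb1, 44 bp from its start. It was in HG3 at the 6.95 percentile, and in NG1 and NG3 at the 41.0 and 68.7 percentile. A last region, at the 1.39 percentile, was in HG1 alone. The Rb1 window of 153 kb held 0.196 regions per 10 kb, the fewest of the 8 genes with any region.

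Of the 10 listed promoters, which belong to 8 of the genes (Cdkn1c and Rb1 had none in the table), 4 had a peak in all 5 lists, 2 in 2 lists and 4 in none. Over all 21262 promoters these shares were 30.0% for all 5 lists and 53.3% for no list. The 4 without a peak were the upstream Cdkn1a start, both Cdkn2a starts and Cdkn2b. CpG content went with openness over the genome. Promoters with a CpG ratio between 0 and 0.2 had a peak in all 5 lists in 0.873% of cases, and those between 1 and 1.2 in 57.7%. The upstream Cdkn1a start, at 0.0892, fell in the first of these bins. The upstream Cdkn2a start fell in the bin from 1 to 1.2, where 15.8% of promoters had no peak in any list. Mdm2 and Cdkn1b were in that bin too, the first with a peak in all 5 lists and the other with one in 2.

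**Figure D4:**
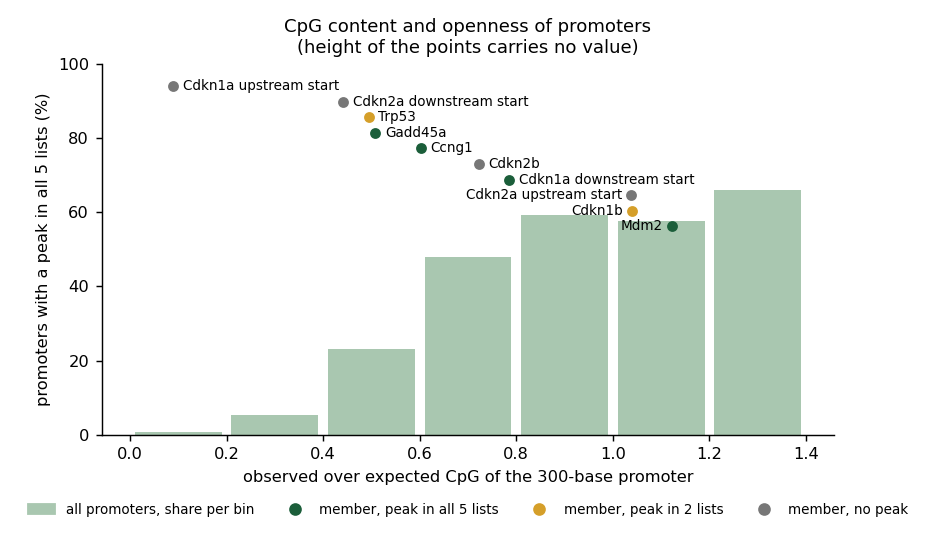
Share of promoters with a peak in all 5 lists (bars, %) in bins of the observed over expected CpG ratio of the 300-base promoter, with the 10 promoters of the group as points placed by their own ratio. Green points had a peak in all 5 lists, yellow ones in 2 and grey ones in none, and the height of a point carries no value. The upstream Cdkn2a start is grey among promoters of which 57.7% were open in all 5 lists.

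At least 1 p53 half-site was present in 5 of the 10 promoters (Trp53, Mdm2, the upstream Cdkn1a start, Gadd45a and Ccng1). Several of these genes were chosen as known p53 targets, so this share says nothing of genes in general. GGGCGG, the SP1 box, was in 7 of the 10, against 46.2% of all promoters. CCAAT, the NF-Y box, was in 6, against 38.2%. The E2F motifs TTCCCGC and TTGGCGC, whose reverse complements can overlap the SP1 box, were in 1, the upstream Cdkn2a start, against 8.69%. CACGTG was in 1, Trp53, against 7.84%. TGANTCA, the AP-1 motif, was in none, against 6.99%, and GGAATG, the TEAD motif, was in none, against 13.6%. All were searched on both strands.

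No region in the windows was held by every list of one condition and by no list of the other. None of the 25 was held by HG1, HG2 and HG3 while missing from both NG1 and NG3, a pattern that 0.167% of all regions had. None was held by NG1 and NG3 while missing from all HG lists, a pattern that 3.73% had. A count of 0 among 25 is near the background at these rates. HG1, HG2 and HG3 held 14, 14 and 17 peaks in the windows, and NG1 and NG3 held 14 and 21. High glucose averaged 15.0 ± 1.73 (SD, n = 3) and normal glucose 17.5 ± 4.95 (SD, n = 2), a difference of -2.50 that is smaller than the spread in normal glucose. The highest count came from the longest list. Without NG3 the difference was 1, without NG1 it was -6, and with lists cut to equal length it was 0.667. Without NG1, 4 regions were in NG3, the longest list, and in no HG list, and the share over all regions was not computed. Per 1000 peaks of a list, the windows held 0.632, 0.560 and 0.753 in HG1, HG2 and HG3, and 0.577 and 0.521 in NG1 and NG3.

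Peak counts per gene were compared by an exact permutation test over the 10 splits of the 5 lists. The two-sided p was the smaller one-sided p multiplied by 2, which cannot fall below 0.2. Over all 21883 genes, 6.71% reached that value and the lowest adjusted p (Benjamini-Hochberg) was 1. Cdkn1c was the only one of the 10 genes to reach it, with 0 peaks in each high-glucose list and 1 in each normal-glucose list (exact p = 0.2, adjusted p = 1). Over all genes, 6.44% had lower counts in every high-glucose list than in either normal-glucose list, so 1 of 10 is near the background. The Cdkn1c peaks were the weak ones described above, at different places, and with lists of equal length or windows of 1 kb no member had lower counts throughout. Without NG1 there were 3 such genes, Mdm2, Cdkn1b and Cdkn1c. That setting leaves NG3, the longest list, as the only normal-glucose list, and its share over all genes was not computed. Counts were higher in every high-glucose list at none of the 10 genes, against 0.270% of all genes. Cdkn1a and Gadd45a had 2 peaks in every list. Mdm2 had 3 peaks in each high-glucose list, and 3 and 5 in NG1 and NG3. Trp53 had 1, 2 and 3 peaks in HG1, HG2 and HG3, and 1 and 3 in NG1 and NG3. Cdkn1b had 3, 2 and 3 in HG1, HG2 and HG3, and 2 and 4 in NG1 and NG3. Rb1 had 2, 1 and 2 in the HG lists and 2 in both NG lists, and Ccng1 had 1, 2 and 2 in the HG lists, and 1 and 2 in NG1 and NG3. For each of these the counts of the conditions overlapped.

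Most genes of the wider pathway had shared open chromatin. Of 67 further genes, 56 (83.6%) had a region in all 5 lists within 10 kb, against 50% of all genes. In 10 genes the most shared region was in 2 to 4 lists, in Tnfrsf10b it was in 1, and no gene was without a region. Of 12 p53 regulators and DNA damage kinases 11 had a region in all 5 lists, the exception being Chek1. Of 25 p53 targets 22 did, among them the apoptosis genes Bax, Bbc3 and Pmaip1, and Tnfrsf10b, Perp and Zmat3 did not. Of 20 genes of the Rb family, E2F factors and G1 kinases 15 did, and Rbl1, E2f6, Ccnd1, Ccnd2 and Cdk6 did not. Of 8 regulators of the Ink4a locus 7 did, including the Polycomb genes Bmi1 and Ezh2, and Cbx7 did not. Of the p53 relatives, Trp73 did and Trp63 did not. A longer window has more room for a region, and the median window over all genes was 37.2 kb. Median windows were longer for the regulators and kinases (75.2 kb), the Ink4a locus regulators (68.3 kb) and the p53 relatives (166 kb). They were shorter for the p53 targets (35.3 kb) and the Rb, E2F and G1 kinase genes (35.7 kb). The part of window length in these shares was not tested.

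**Figure D5:**
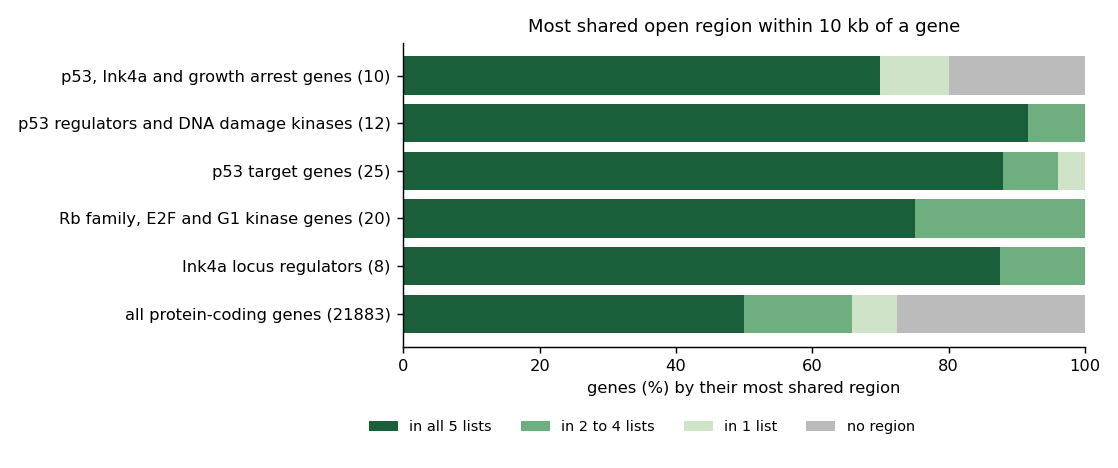
Share of genes (%) by the number of lists that hold their most shared region within 10 kb, for the 10 genes on top, 4 lists of related genes (the number of genes in brackets) and all protein-coding genes at the bottom. Grey marks genes with no region in any list, which are Cdkn2a and Cdkn2b among the 10.

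By the lowest percentile of the strongest peak over the 5 lists, Atm, Ets1 and Cdk4 stood highest among the 67, at 99.3, 98.7 and 98.5. Atm encodes the kinase that signals double-strand breaks to p53, Ets1 a factor that can induce p16, and Cdk4 the kinase that p16 blocks. A window can take in the start of a neighbouring gene, so such a peak may belong to another gene. Regions specific to a glucose condition lay near 6 of the 67 genes. A region near Ppm1d, the phosphatase that dampens p53 signalling, was held by HG1, HG2 and HG3 alone, at the 47.9, 71.6 and 71.6 percentile, and 1.49% of the 67 genes had such a region against 0.420% of all genes. Regions held by NG1 and NG3 alone lay near Hipk2, Sesn1, Ccnd3, Cbx7 and Ets1, which is 7.46% of the 67 genes against 7.52% of all genes. Their percentiles ran from 4.52 to 47.8 in NG1 and from 12.9 to 70.6 in NG3. The Ppm1d region, chr11:85352658-85352847, overlapped no protein-coding gene.

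Likeness to the members was measured as the mean absolute difference, over the 5 lists, of the percentile of the strongest peak in the window, among the 60 genes of the 67 with a peak in every list. Closest to Trp53 were Ddit4 and Chek2, at 2.81 and 3.53 percentile points. The Trp53 peak compared was that of the shared region outside the gene, at a listed start of Wrap53. Closest to Cdkn1a were Usp7 and Gadd45g, at 5.29 and 6.29. The Cdkn1a values mix its regions. The strongest peak was at the downstream start in HG2 and NG3, and farther inside the gene in HG3 and NG1. In HG1 both regions had the same percentile. Cdkn2a had no peak to compare.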

How the data were processed

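The data were 6 lists of ATAC-seq peaks, 3 per glucose level. Per the submitters' processing notes, which give no roles or settings, reads were handled on mm10 with MACS2 2.1.0, Bowtie 1.0.0, Picard 1.90, SAMtools 0.1.19, cutadapt 1.0 and FastQC, and DiffBind 1.12.3 and edgeR are also listed. Read shifting and duplicate handling are not stated in the labels. Each peak in the deposited lists has the authors' score, their ratio of fold enrichment over background, and 2 columns on a −log10 scale, one for its p-value and one for its q-value. The lowest deposited −log10 q was 1.30. A summit position is also given.

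Computed here were percentiles of −log10 p within a list (ties share a mean rank), regions merged over the 5 lists with at least 1000 peaks on chromosomes 1 to 19, X and Y, presence per list, and peak counts per gene. Region merging was checked on simulated data and with bedtools 2.31.1. Gene spans of 21883 protein-coding genes, and 300-base promoters, came from RefSeq on GRCm38.p6, which shares the coordinates of mm10. Strand and starts were taken from the promoters, which 17491 genes had. Exons were not annotated there. Per-gene counts were tested by exact permutation over 10 splits. Alternatives were lists of equal length (22149 peaks), a −log10 q of at least 5, windows of 1 and 25 kb, merging within 200 bp, all 6 lists, each list left out, and pairing by replicate number.

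The members, lists and rules were chosen with earlier results of these data known. All 10 members are named. Other pathway genes are named where their window held a region specific to a condition or ranked in the top 3 by the weakest list, and genes likest to Trp53 and Cdkn1a are given. Other genes named as members or exceptions of a list were chosen after their values were seen. The software was matplotlib 3.10.9, SciPy 1.17.1, pandas 2.3.3 and numpy 2.4.6 under Python 3.11.15.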

Additional observations from a re-analysis of the deposited data

How the results depend on the processing

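The 7 genes with a region in every list were the same with lists of equal length, a −log10 q of at least 5, windows of 1 kb and merging within 200 bp, and without each list in turn (7 to 7). Windows of 25 kb gave 8, since that of Cdkn2a then took in the region 16.4 kb away, and all 6 lists gave 0, because NG2 had no peak in any window. Regions held by all HG lists alone remained at 0 except without a list (0 to 1, the Ccng1 region without HG1). Regions held by NG1 and NG3 alone became 1 at the stricter q, the Lpar6 region inside Rb1, and ran from 0 to 4 without a list, the 4 without NG1. The difference in mean peak count ran from -6 without NG1 to 1 without NG3. It was 0.667 with lists of equal length and 3.33 with all 6 lists, both of the opposite sign to the main value of -2.5. The equal-length value lay within 1 pooled SD (3.19) of the main value. That SD is the spread of counts between lists of a condition and not the error of a difference in means. Genes with lower counts in every high-glucose list numbered 0 with equal length, 0 with windows of 1 kb and 0 with all 6 lists, and ran from 1 to 3 without a list. At the stricter q the 1 gene was Rb1 and no longer Cdkn1c. The shares over all regions and all genes were not computed for these settings.

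Nothing in the labels says that equal replicate numbers share a culture. Over 15837 genes with a peak, deviations from the condition mean correlated by 0.00391 for number 1 and by -0.0219 for number 3. With only NG1 and NG3 in normal glucose, their deviations are equal and opposite. Both values thus rest on the same difference between NG1 and NG3, and they cannot settle whether numbers were paired. With the replicate block, numbers 1 and 3 gave a mean paired difference of -2, with Cdkn1c lower in both pairs (1 gene) and 0 genes higher. Depth is unknown, so a missing peak does not show closed chromatin.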

Other observations

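NG2, which entered no comparison, had no peak among its 66 in the window of any of the 10 genes. Of the 67 genes of the wider pathway, 1 had a peak of that list in its window, Atm.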
